A study of Mus musculus with 33 samples.

Results

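Oxidative phosphorylation genes were read out in RNA sequencing of whole embryonic mouse kidneys. The set was chosen by gene symbol alone: the subunits of the respiratory chain and of ATP synthase, with the complex I assembly factors that share the Nduf prefix. It held 105 of the 35349 gene symbols of the count table, of which 92 lie in the nuclear genome and 13 in the mitochondrial genome. The kidneys came from 5 groups that differ in Six2, the gene of a transcription factor that maintains nephron progenitors. At E11.5 there were 6 wild-type specimens, 5 specimens heterozygous for loss of Six2 and 5 Six2 knockout specimens, and at E15.5 there were 4 wild-type and 4 heterozygous specimens. The labels give genotype, sex and age only, so the strain and the way in which the Six2 allele was made are not described here. Females and males numbered 4 and 2 among wild-type, 2 and 3 among heterozygous and 4 and 1 among knockout specimens at E11.5, and 1 and 3 in each genotype at E15.5.

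Oxidative phosphorylation makes ATP in the inner mitochondrial membrane. Complex I takes electrons from NADH and complex II from succinate, complexes III and IV pass them to oxygen through ubiquinone and cytochrome c, and complexes I, III and IV pump protons that drive the ATP synthase, complex V. Complex II is built from nuclear gene products alone, while the other complexes combine nuclear subunits with subunits encoded in mitochondrial DNA. In the mature kidney the proximal tubule is rich in mitochondria and meets most of its energy demand in this way.

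The 33 libraries held 10.8 to 42.1 times 1e+06 counts each, and 9 specimens, all 8 at E15.5 and 1 heterozygous specimen at E11.5, were sequenced in both of the batches named in the labels. Six2 itself followed the labels at E11.5, with 19.4 to 33.1 CPM (counts scaled to a library of 1e+06) for the wild type, 9.90 to 16.95 for heterozygotes and 0.290 to 0.665 for knockouts. At E15.5 wild-type and heterozygous specimens had 11.004 to 12.8 and 5.68 to 6.504 CPM. Ribosomal RNA rows took 0.878 to 26.6% of the counts in the 9 batch 1 libraries at E11.5, and 0.222 to 0.469% in the 8 batch 2 libraries. At E15.5 they took 0.398 to 1.08%. Genotypes differed in this share within batch 1: wild-type libraries had 20.5 to 26.6%, heterozygous ones 3.57 to 18.7% and those of knockouts 0.878 to 12.5%. Nephron progenitor markers summed to 400 to 587 CPM in wild-type and 184 to 256 CPM in knockout kidneys at E11.5. Proximal tubule markers summed to 35.8 to 51.9 CPM in wild-type kidneys at E11.5 and 843 to 980 CPM at E15.5.

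Among the nuclear members 2 genes of complex V had the highest levels per length. In wild-type kidneys at E11.5 Atp5a1 and Atp5b, the alpha and beta subunits that form the catalytic head of the enzyme, averaged 364 and 304 CPM per kb of the deposited gene length. They held ranks 4 and 5 among the 105 members, and ranks 3 and 4 at E15.5, with 484 and 416 CPM per kb. In complex IV, which reduces oxygen, the highest nuclear levels per length at E11.5 were those of Cox6b1 (294 CPM per kb) and Ndufa4 (274 CPM per kb), a protein first assigned to complex I and now placed with complex IV. Complex III was led by Uqcrh, the hinge protein (127 CPM per kb), and complex I by Ndufb9, an accessory subunit (127 CPM per kb). Complex II was led by Sdhd, which anchors the enzyme in the membrane (79.4 CPM per kb). Among the complex I assembly factors, which help to build the complex and are not part of it, Ndufaf2 was highest with 25.5 CPM per kb. The same genes led complexes I, II and V at E15.5, while Uqcr10 (151 CPM per kb) led complex III and Ndufa4 (340 CPM per kb) complex IV. This order rests on the deposited lengths. They exceed the longest annotated coding transcript for Cox4i1 (1556 against 765 bases) and Atp5b (4246 against 1916), and fall below it for Cox6b1 (509 against 618). The order under other lengths was not tested.

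Several subunits exist as paralogous forms, and the form known from most tissues was the abundant one in each group. Cox4i1, the general form of subunit 4, averaged 158 CPM per kb in wild-type kidneys at E11.5, against 1.95 for Cox4i2, a form known for its expression in lung and in pericytes of small vessels. Cox7a2 averaged 139 CPM per kb and Cox7a1, the heart and muscle form, 1.97. For subunit 6b, Cox6b1 averaged 294 CPM per kb and Cox6b2, the testis form, 6.64. The muscle forms Cox6a2 and Cox8b had 8 and 59 counts over all 24 specimens, the testis form Cox7b2 had 16 and Cox8c had 0. Their general counterparts Cox6a1, Cox8a and Cox7b averaged 141, 245 and 80.2 CPM per kb in the same group. The 3 genes for the membrane ring subunit c of ATP synthase make the same mature protein, and here Atp5g3 (76.5 CPM per kb) stood above Atp5g2 (15.4) and Atp5g1 (11.2). The order of the last 2 rests on the deposited lengths, 1681 bases for Atp5g2 and 4918 for Atp5g1. In counts over all 24 specimens Atp5g1 (50380) stood above Atp5g2 (19868). Cox7a2l, which joins complexes III and IV into supercomplexes, averaged 80.3 CPM per kb. Atp5l, the g subunit of ATP synthase, had only 561 counts over all specimens, or 1.699 CPM per kb at E11.5. Its closest annotated match outside the gene was the processed pseudogene Gm4853 (96.7% identity over 394 bases), and whether reads were lost between them was not tested.

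**Figure D1:**
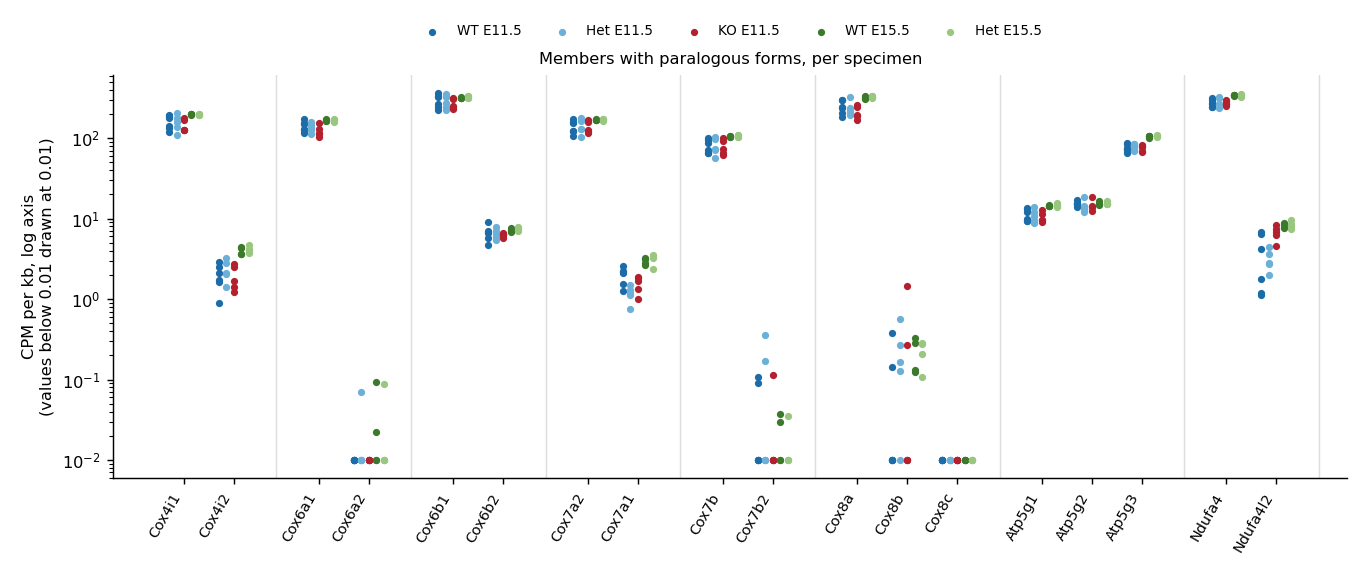
Level of members with paralogous forms in each of the 24 specimens, in CPM per kb on a log axis, with values below 0.01 drawn at 0.01 and colours for the 5 groups. In each set 1 form stands above the others in all groups, for example Cox4i1 (158 CPM per kb in wild-type kidneys at E11.5) over Cox4i2 (1.95).

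The mitochondrially encoded members fell into 2 sets. Counts were found for mt-Co1, the catalytic core of complex IV, mt-Cytb, the cytochrome b of complex III, and the complex I core subunits mt-Nd1, mt-Nd2, mt-Nd4, mt-Nd5 and mt-Nd6. For mt-Co2, mt-Atp6, mt-Atp8 and mt-Nd4l there were 0 counts in all 24 specimens, mt-Co3 had 3 in all and mt-Nd3 had 8. In cells, these 6 are mitochondrial transcripts as well, and several are made as part of the same precursor as those that were counted. A search of each member's longest coding transcript against all annotated mouse transcripts (GENCODE vM21, GRCm38) found a copy outside the gene with at least 99% identity over at least 90% of its length for 5 of the 13 mitochondrial members and for 0 of the 92 nuclear ones. These 5 were mt-Co2, mt-Co3, mt-Atp6, mt-Nd3 and mt-Nd4l, and their copies lie next to each other in a stretch of mitochondrial sequence in chromosome 1 (24612407 to 24615565, minus strand). None of the 5 copies has a row in the count table. The bound on length counts the whole transcript, so close copies of part of a nuclear transcript are left out of the 0. Such copies were found for Ndufb4 (100% identity over 390 of 971 bases), Ndufs5 (99.4% over 319 of 680) and Atp5g1 (99.8% over 411 of 4715), among others. Whether reads of these members were lost to their copies was not tested. For mt-Nd1 and mt-Atp8 no annotated transcript matched at 90% identity, but a search of annotated transcripts cannot find copies without annotation. In the mitochondrial genome mt-Atp8 (7766 to 7969) lies after mt-Co2 and overlaps the start of mt-Atp6, which both have copies on chromosome 1. Whether the chromosome 1 stretch also holds a copy of mt-Atp8 was not tested. The other 6 members that were counted matched copies on chromosomes 1, 2 and 4 less closely or over a shorter stretch, from 92.4% identity over 1055 bases (mt-Nd5) to 100% over 876 of 1378 bases (mt-Nd4). How reads that match 2 places were handled was not given in the sources used here, so the near-zero values of 6 members are not read as expression levels.

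The sequences below show this difference between a member that was not counted and a member that was, with capitals at each base where gene and copy differ. The first pair is bases 1 to 61 of mt-Nd3 (mitochondrial genome, 9459 to 9806, plus strand) and the matching stretch of Gm28438 (chromosome 1, 24612775 to 24613119, minus strand), which differ at 1 of 345 aligned bases. The second pair is bases 543 to 603 of mt-Cytb (mitochondrial genome, 14145 to 15288, plus strand) and Gm11410 (chromosome 4, 80003989 to 80005131, plus strand), which differ at 81 of 1142 aligned bases and at 5 of the 61 shown.
mt-Nd3: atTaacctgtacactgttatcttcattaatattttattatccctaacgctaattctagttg
Gm28438: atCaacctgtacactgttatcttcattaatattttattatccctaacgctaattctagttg
mt-Cytb: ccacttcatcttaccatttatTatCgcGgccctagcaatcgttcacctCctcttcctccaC
Gm11410: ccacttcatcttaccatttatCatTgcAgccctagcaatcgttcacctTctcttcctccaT

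In the 7 counted mitochondrial members the order of levels was the same at the top in both stages. In wild-type kidneys mt-Co1 averaged 1511 CPM per kb at E11.5 and 1281 at E15.5, mt-Nd1 averaged 624 and 493, and mt-Cytb 474 and 262. The lowest of the 7 was mt-Nd6, the single complex I subunit read from the light strand, with 60.1 and 34.2 CPM per kb. The 13 members together took 0.260 to 0.535% of all counts of a specimen, and the 92 nuclear members 0.623 to 1.20%. Nearly all of the mitochondrial share comes from the 7 counted members, and the deposited files do not say how RNA was selected. These are therefore shares of the counts assigned to genes. They are not read as shares of all mitochondrial or nuclear transcripts.

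The batch moved nuclear and mitochondrial members in opposite directions at E11.5. Summed over the 92 nuclear members, the 9 batch 1 libraries at E11.5 held 7615 to 8801 CPM and the 8 batch 2 libraries 9715 to 11560 CPM, so the batches did not overlap. Summed over the mitochondrial members, batch 1 held 4170.4 to 5609 CPM and batch 2 held 2300 to 3343 CPM, again without overlap. In the batch term of the E11.5 model 73 of 88 tested nuclear members were higher in batch 2, 5 were lower and 10 did not pass (median log2 difference 0.38), where 52.8% of all 16141 genes were called, 26.5% higher and 26.2% lower (edgeR's quasi-likelihood test, Benjamini-Hochberg adjusted p under 0.05). All 7 tested mitochondrial members were lower in batch 2, from -0.55 for mt-Co1 to -2.08 for mt-Nd6. The heterozygous specimen that was sequenced in both batches showed the same pattern within 1 specimen, with 7615 and 9875 CPM of nuclear and 4172 and 2300 CPM of mitochondrial members in batch 1 and batch 2. The batches also differed in ribosomal RNA share, as given above, and its part in these differences was not tested.

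At E15.5, where every specimen was run in both batches, the pattern was another one. Mitochondrial members summed to 2190.4 to 3114 CPM in batch 1 and 2913 to 3588 CPM in batch 2, and all 7 tested members were higher in batch 2 (median log2 difference 0.39, where 26.8% of all genes were called, 13.4% in each direction). Nuclear members summed to 11123 to 11663 CPM in batch 1 and 11388 to 11923 CPM in batch 2, and 38 of 88 were higher and 8 lower (median 0.06). The labels do not say whether a batch number means the same sequencing run at both stages.

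**Figure D2:**
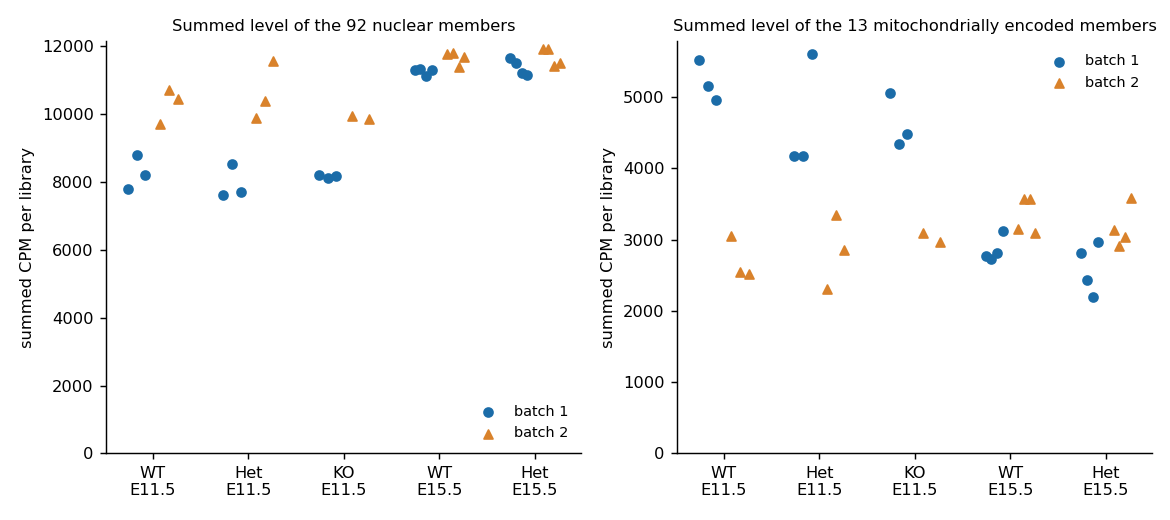
Summed CPM of the 92 nuclear members (left) and the 13 mitochondrially encoded members (right) in each of the 33 libraries, by group, on linear axes from 0, with circles for batch 1 and triangles for batch 2. At E11.5 the batches do not overlap in either panel, with nuclear sums higher (9715 to 11560 CPM) and mitochondrial sums lower (2300 to 3343 CPM) in batch 2.

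Loss of Six2 left the oxidative phosphorylation genes without a called difference at E11.5. In knockout against wild-type kidneys 0 of 95 tested members passed, where 7.09% of all 16141 tested genes were called, 3.06% higher and 4.03% lower (edgeR's quasi-likelihood test with sex and batch in the model, Benjamini-Hochberg adjusted p under 0.05). At an unadjusted p under 0.05 there were 7 nuclear and 0 mitochondrial members, and DESeq2 also called 0. The 88 nuclear members had a median log2 fold change of -0.03, beside -0.002 over all genes tested, with 35 above and 53 below 0. By complex the medians were 0.01 for complex I subunits, -0.03 for complex I assembly factors, -0.05 for complex II, -0.08 for complex III, 0.01 for complex IV and -0.05 for complex V. The sum of the nuclear members ran from 7558 to 10738 CPM with a median of 9208 in wild-type kidneys, from 7565 to 11389 with a median of 9049.6 in heterozygous and from 7943 to 9982 with a median of 8081 in knockout kidneys, and the groups overlapped throughout. These medians mix the batches. Among batch 1 libraries the medians were 8191 CPM for wild-type, 7693 for heterozygous and 8172 for knockout kidneys. Among batch 2 libraries they were 10454, 10374 and 9900 CPM. For 85 of the 88 nuclear members the 95% confidence interval of the difference lay within 1.5-fold in either direction, the exceptions being Cox7a1, Atp5l and Ndufa4l2. In bulk kidney RNA fewer cells of a type and less RNA per cell cannot be told apart, and the p-values measure the spread between specimens, which the labels do not say are separate animals or pools.

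The member nearest to the threshold was Cox6a1, a small structural subunit of complex IV. It measured 80.8, 99.6 and 121 CPM (lowest, median and highest) in wild-type kidneys and 72.9, 79.6, 81.0, 91.1 and 107 CPM in knockout kidneys. The ranges overlapped over most of their length, and the log2 fold change was -0.16 ± 0.06 (SE) with an adjusted p of 0.0996.

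Ndufa4l2, a hypoxia-inducible relative of Ndufa4 known from pericytes, had the largest fold change and the largest error. Its levels were 1.08, 2.90 and 6.52 CPM (lowest, median and highest) in wild-type kidneys. They were 1.92, 2.62, 2.67, 3.55 and 4.27 CPM in heterozygous and 4.45, 6.04, 6.61, 7.16 and 7.96 CPM in knockout kidneys. All 5 knockout values lay above all 5 heterozygous values and above 4 of the 6 wild-type values, but the other 2 wild-type kidneys, both in batch 1, had 6.13 and 6.52 CPM. The log2 fold change against wild type was 0.92 ± 0.40 (adjusted p = 0.203) and against heterozygous kidneys 1.09 ± 0.43 (adjusted p = 0.184).

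Mitochondrial members showed no called difference between genotypes either. In knockout against wild-type kidneys the median of the 7 tested members was -0.14, with 6 of 7 below 0. The most negative was mt-Nd6 (-0.38 ± 0.19, adjusted p = 0.272), followed by mt-Nd4 (-0.25 ± 0.13, adjusted p = 0.285). mt-Co1 was at 0.06 ± 0.11. The interval of mt-Nd6 ran from -0.78 to 0.02 on the log2 scale and reached past 1.5-fold, while those of the other 6 did not. With the prefix of the library titles as a block in place of batch, 2 of the 7 passed, both lower. The 7.09% of all genes called belongs to the fit with batch, and the share in the fit with the prefix is not given here.

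Heterozygous kidneys at E11.5 also had 0 of 95 members called, with 3 nuclear and 0 mitochondrial members at an unadjusted p under 0.05 and 0 calls by DESeq2, where 0.0681% of all genes were called, 0.0124% higher and 0.0558% lower. Medians were 0.02 for nuclear and 0.06 for mitochondrial members. The farthest from 0 was Cox7a1, the heart and muscle form of subunit 7a, at 0.465, 0.782 and 0.935 CPM (lowest, median and highest) in wild-type and 0.275, 0.418, 0.441, 0.475 and 0.550 CPM in heterozygous kidneys (-0.75 ± 0.27, adjusted p = 0.541). Skeletal and cardiac muscle markers summed to 192 to 278 CPM in wild-type, 161 to 275 CPM in heterozygous and 117 to 155 CPM in knockout kidneys, and their part in the level of Cox7a1 was not tested. Knockout against heterozygous kidneys again gave 0 of 95, where 3.69% of all genes were called, 0.892% higher and 2.79% lower. At an unadjusted p under 0.05 there were 5 nuclear and 2 mitochondrial members. In this main fit the nuclear and mitochondrial medians were -0.03 and -0.16. DESeq2 called 1 nuclear member. With the title prefix as a block 1 nuclear member was higher and 4 mitochondrial members were lower. The shares of all genes called by DESeq2 and with that block are not given here. The 3 comparisons at E11.5 share their specimens in pairs and are not independent of each other.

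At E15.5 the specimens varied less and the comparison was more precise. Heterozygous kidneys had nuclear sums of 11274 to 11734 CPM, against 11219.7 to 11502 CPM in wild-type kidneys, and mitochondrial sums of 2494 to 3190 CPM against 2908 to 3099 CPM. None of the 95 tested members was called by edgeR or by DESeq2 (2 nuclear and 3 mitochondrial at an unadjusted p under 0.05), where 0.57% of all 18244 genes were called, 0.208% higher and 0.362% lower. The intervals of all 88 nuclear and all 7 mitochondrial members lay within 1.5-fold. All 7 tested mitochondrial members lay below 0, from -0.08 (mt-Nd5) to -0.14 (mt-Cytb), with a median of -0.11 and adjusted p of at least 0.520. mt-Cytb measured 291, 291, 301 and 318 CPM in wild-type and 234, 270, 287 and 308 CPM in heterozygous kidneys. These 7 are read from the same mitochondrial genome in the same specimens and are not independent. The nuclear member with the smallest adjusted p (0.346) was Ndufs5, an accessory subunit of complex I, at -0.14 ± 0.05. The heterozygous effect did not differ in a called way between the stages for any of the 95 members (1 nuclear and 0 mitochondrial members at an unadjusted p under 0.05, 0 by DESeq2; 0.00576% of all 17362 genes were called).

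**Figure D3:**
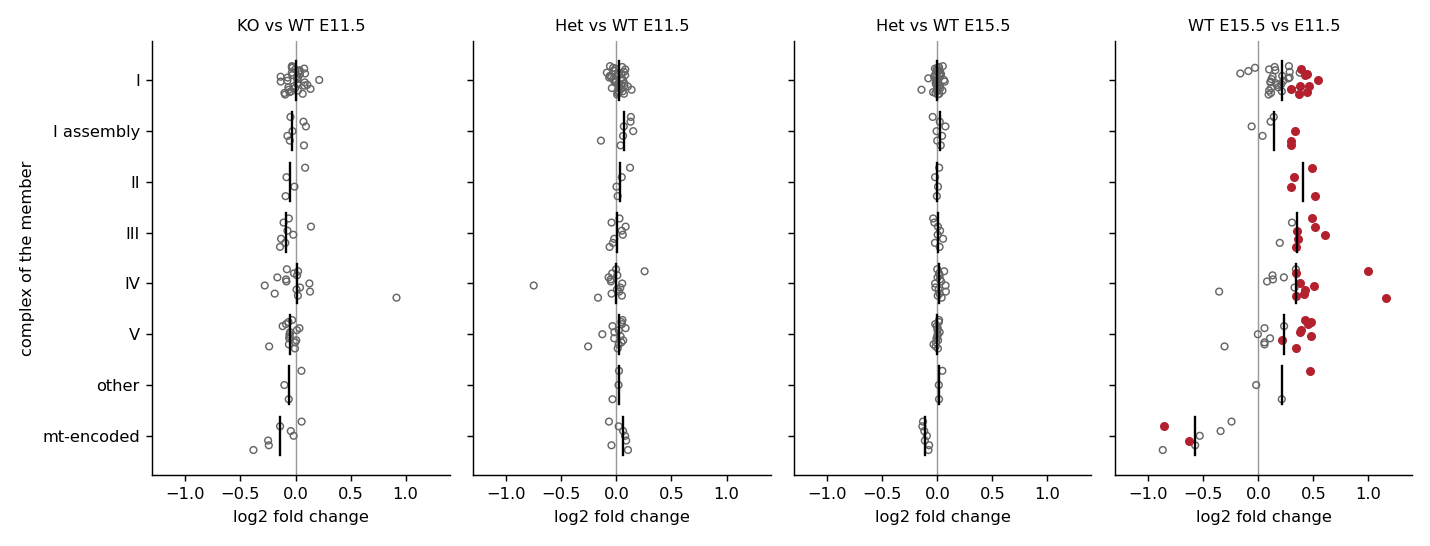
Log2 fold change of each of the 95 tested members in 4 comparisons, by complex, with filled red points for members called at an adjusted p under 0.05, open points for the others and a black bar at the median of each class. No member is called between genotypes, while 39 nuclear members are called higher and 2 mitochondrial members lower at E15.5.

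Part of the nuclear oxidative phosphorylation genes rose between the stages. In wild-type kidneys 39 of 88 tested nuclear members were higher at E15.5 than at E11.5, 0 were lower and 49 did not pass, where 26.4% of all 17362 genes were called higher and 26% lower (52.5% in all). The median log2 fold change was 0.28, beside -0.02 over all genes. All 4 complex II subunits rose, as did 6 of 8 in complex III, 8 of 15 in complex IV, 8 of 15 in complex V, 9 of 36 complex I subunits, 3 of 7 complex I assembly factors and Atp5s among the 3 others. The summed nuclear level of wild-type kidneys was 7558, 9208 and 10738 CPM (lowest, median and highest) at E11.5 and 11219.7 to 11502 CPM at E15.5, without overlap. Heterozygous kidneys at E11.5 reached 11389 CPM, within the E15.5 range. The labels do not say that any run held both stages, so stage and sequencing run cannot be told apart, and the comparison was repeated within the runs that carry the same batch number.

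Complex II, the succinate dehydrogenase that also belongs to the citric acid cycle, was the complex in which all subunits passed over all specimens and in the runs of each batch. Sdha, its flavoprotein, measured 182, 227 and 263 CPM (lowest, median and highest) at E11.5 and 310, 321, 335 and 339 CPM at E15.5. Sdhd, a membrane anchor, measured 95.3, 103 and 109 CPM at E11.5 and 141, 144, 144 and 147 CPM at E15.5. Sdhb, the iron-sulfur subunit, went from 89.5, 114 and 134 to 134, 140, 140 and 142 CPM, and Sdhc, the other anchor, from 93.2, 110 and 129 to 132, 133, 135 and 135 CPM. For all 4 the lowest E15.5 kidney lay above the highest E11.5 wild-type kidney, by a wide margin for Sdha and Sdhd and by a narrow one for Sdhb and Sdhc. The share of all genes with stages apart in this way was not counted, so this is not read as a trait of complex II. The log2 fold changes were 0.49 ± 0.09 for Sdha (adjusted p = 7.64e-05), 0.52 ± 0.06 for Sdhd (1.14e-07), 0.32 ± 0.11 for Sdhb (0.0194) and 0.29 ± 0.10 for Sdhc (0.0175). Sdha was 0.34 with batch 1 runs and 0.62 with batch 2 runs, and Sdhd 0.45 and 0.56. Without the E11.5 libraries above 5% ribosomal RNA Sdhb (0.16, adjusted p = 0.148) and Sdhc (0.16, adjusted p = 0.137) no longer passed.

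NRF1, nuclear respiratory factor 1, is known to bind promoters of many respiratory chain genes. All 4 complex II genes rose over all specimens and in the runs of each batch. Of these, Sdhb held no match to the binding motif of NRF1 in its promoter, and no promoter window was matched for Sdhc. The promoters of Sdha and Sdhd are shown because both hold the motif. Each is the window of 300 bases from 250 before to 50 after the transcription start in RefSeq (GRCm38.p6): chr13:74350191-74350490 for Sdha and chr9:50603800-50604099 for Sdhd, both on the minus strand, with capitals at each match to the letters GCGCA, any 1 base, then GCGC, searched on both strands.
Sdha: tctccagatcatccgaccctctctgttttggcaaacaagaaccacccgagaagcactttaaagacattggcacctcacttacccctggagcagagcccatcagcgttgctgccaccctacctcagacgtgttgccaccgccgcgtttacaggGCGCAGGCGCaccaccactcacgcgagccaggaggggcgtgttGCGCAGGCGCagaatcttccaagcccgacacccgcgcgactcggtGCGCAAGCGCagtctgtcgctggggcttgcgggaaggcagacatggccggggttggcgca
Sdhd: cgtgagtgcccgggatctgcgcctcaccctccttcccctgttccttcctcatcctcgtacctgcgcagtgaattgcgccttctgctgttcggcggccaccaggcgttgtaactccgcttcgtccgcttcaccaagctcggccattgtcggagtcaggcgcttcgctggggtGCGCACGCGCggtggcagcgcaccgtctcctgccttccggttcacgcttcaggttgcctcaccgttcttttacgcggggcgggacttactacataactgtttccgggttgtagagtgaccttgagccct

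The motif occurred 3 times in the Sdha window and once in the Sdhd window, and a match describes the letters, not a bound site. Of the 92 nuclear members 76 matched a RefSeq promoter window, and 18 of these (23.7%) held the motif. Among windows of all genes 1289 of 26742 (4.82%) held it. The windows of all genes were not matched to the members for expression or base content, and the part of these in the difference was not tested. Among the 33 members called higher at E15.5 over all specimens and in the runs of both batches, 24 had a window and 8 held the motif (33.3%). Besides Sdha and Sdhd the 18 included Atp5g3, Atp5o, Ndufb4, Uqcrc1, Ndufa8 and Ndufaf4, which rose between the stages. The rest were not called: Cox6a1, Ndufs5, Ndufs6, Ndufa5, Ndufa6, Ndufa11, Ndufaf5, Atp5g2, Atp5h and Atp5k.

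Complex III passes electrons from ubiquinol to cytochrome c. Uqcrc2, one of its core proteins, measured 144, 160.5 and 177 CPM (lowest, median and highest) at E11.5 and 239, 244, 244 and 245 CPM at E15.5, and the stages were far apart. The log2 fold change was 0.60 ± 0.06 (adjusted p = 5.17e-08), and 0.55 and 0.65 in the runs of batch 1 and batch 2. Uqcrb, the ubiquinone-binding protein, went from 46.4, 52.5 and 57.4 to 69.3, 73.5, 74.5 and 74.6 CPM (0.51 ± 0.07, adjusted p = 4.34e-06). Uqcrc1, Uqcrfs1, the Rieske iron-sulfur protein, Uqcrq and Uqcr10 rose by 0.34 to 0.49. Uqcrh and Uqcr11 did not pass.

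In complex IV the largest changes were in the scarce paralogous forms. Ndufa4l2 was at 1.08, 2.90 and 6.52 CPM at E11.5 and 7.47, 7.60, 8.17 and 8.51 CPM at E15.5 (1.16 ± 0.36, adjusted p = 0.00949). Its E11.5 values were widely spread while those at E15.5 were close together, and the stages did not overlap. The rise was 0.68 in batch 1 runs (adjusted p = 0.0516) and 1.62 in batch 2 runs. Cox4i2 went from 0.706, 1.52 and 2.26 to 2.85, 2.87, 3.40 and 3.48 CPM (1.00 ± 0.25, adjusted p = 0.00195) and passed in both batches. Cox7a1 went from 0.465, 0.782 and 0.935 to 0.988, 1.05, 1.14 and 1.20 CPM (0.50 ± 0.19, adjusted p = 0.0325) and did not pass in batch 1 runs (0.17, adjusted p = 0.619). Pericyte and vascular smooth muscle markers summed to 396 to 707 CPM at E11.5 and 632 to 665 CPM at E15.5, and muscle markers to 192 to 278 CPM and 78.3 to 82.7 CPM, in wild-type kidneys. Their part in these results was not tested. Among the abundant subunits Ndufa4, Cox5a, Cox6c, Cox7b and Cox8a rose by 0.34 to 0.42, and Cox4i1 did not pass. Cox5a (0.13, adjusted p = 0.313) and Cox8a (0.19, adjusted p = 0.0821) were not called in batch 2 runs. Cox7c, a small subunit of the same complex, lay below 0 (-0.36 ± 0.17, adjusted p = 0.0788), and was called lower in the runs of each batch (-0.15 and -0.60).

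Complex V rose in 8 of 15 nuclear subunits. These were the alpha, beta and gamma subunits of the catalytic part (Atp5a1 0.43, Atp5b 0.47, Atp5c1 0.45), the stalk subunits Atp5f1 (0.39), Atp5j (0.22) and Atp5o (0.34), and the ring genes Atp5g1 (0.38) and Atp5g3 (0.48), all as log2 fold changes. Atp5g2, the third gene for the ring subunit, did not pass, and Atp5j was not called in batch 1 runs (0.10, adjusted p = 0.117). In complex I, 9 of 36 subunits (25%) rose, by 0.29 to 0.54, a share near the 26.4% of all genes called higher. They included the core iron-sulfur subunits Ndufs1 (0.38 ± 0.05, adjusted p = 6.74e-07), Ndufs8 and Ndufv2, and Ndufb4, an accessory subunit, which went from 8.38, 8.86 and 10.9 to 13.1, 13.7, 13.9 and 14.8 CPM (0.54 ± 0.11, adjusted p = 0.000355). An annotated pseudogene, Ndufb4c, matches 390 bases of Ndufb4 at 100% identity, which makes its level uncertain. The assembly factors that rose were Ndufaf4, Ndufaf6 and Ndufaf7.

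The rise of nuclear members held within batches in part. With batch 1 runs alone 73 of 88 were higher and 1 lower, where 63.7% of all genes were called, 31.7% higher and 32% lower. With batch 2 runs alone 43 were higher and 8 lower, where 60% were called, 31.4% higher and 28.6% lower. The medians were 0.37 and 0.15. The 33 members that were higher in the main comparison and in both batches were 9 complex I subunits, 3 assembly factors, 4 in complex II, 6 in complex III, 4 in complex IV and 7 in complex V, and 4 nuclear members had opposite calls in the batches: Atp5e, Atp5k, Ndufa13 and Cox5b. Leaving out the E11.5 libraries above 5% ribosomal RNA left 26 nuclear members higher and 3 lower, with a median of 0.10. In that fit 54.7% of all genes were called, 28.3% higher and 26.4% lower, so the members' share of higher calls was near that of all genes. It keeps 3 wild-type kidneys at E11.5, all of batch 2, and is therefore not separate from the batch 2 runs. Of the 39 members 25 were higher there. The others were Sdhb, Sdhc, Uqcr10, Uqcrq, Cox5a, Cox7b, Cox8a, Atp5g1 (0.16, adjusted p = 0.238), Atp5o (0.15, adjusted p = 0.229), Ndufa8, Ndufs4, Ndufs8, Ndufv2 and Ndufaf6. Of the 33 members, 21 were higher there as well. With wild-type specimens alone 28 nuclear members were higher, all among the 39, and 1 was lower, where 44.2% of all genes were called, 22.9% higher and 21.2% lower.

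The mitochondrial members had no stage difference that held within batches. All 7 tested lay below 0 at E15.5 over all specimens (median -0.57), and mt-Cytb (-0.86 ± 0.27, adjusted p = 0.0105) and mt-Nd4 (-0.63 ± 0.26, adjusted p = 0.0467) passed. mt-Cytb measured 326, 548 and 754 CPM (lowest, median and highest) in wild-type kidneys at E11.5 and 291, 291, 301 and 318 CPM at E15.5. The 3 high E11.5 kidneys (687, 750 and 754 CPM) were those of batch 1 and the 3 low ones (326, 334 and 409 CPM) those of batch 2. With batch 1 runs alone all 7 were lower at E15.5 (median -1.26), and with batch 2 runs alone 6 of 7 were higher and 0 lower (median 0.59), so that 6 members had calls in opposite directions. mt-Nd6 was at -1.56 in batch 1 runs and 0.98 in batch 2 runs, mt-Nd1 at -0.98 and 0.77, and mt-Co1 at -0.60 and 0.26. Without the E11.5 libraries above 5% ribosomal RNA 0 of 7 passed. A direction of change for the mitochondrial members between the stages is therefore not given.

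**Figure D4:**
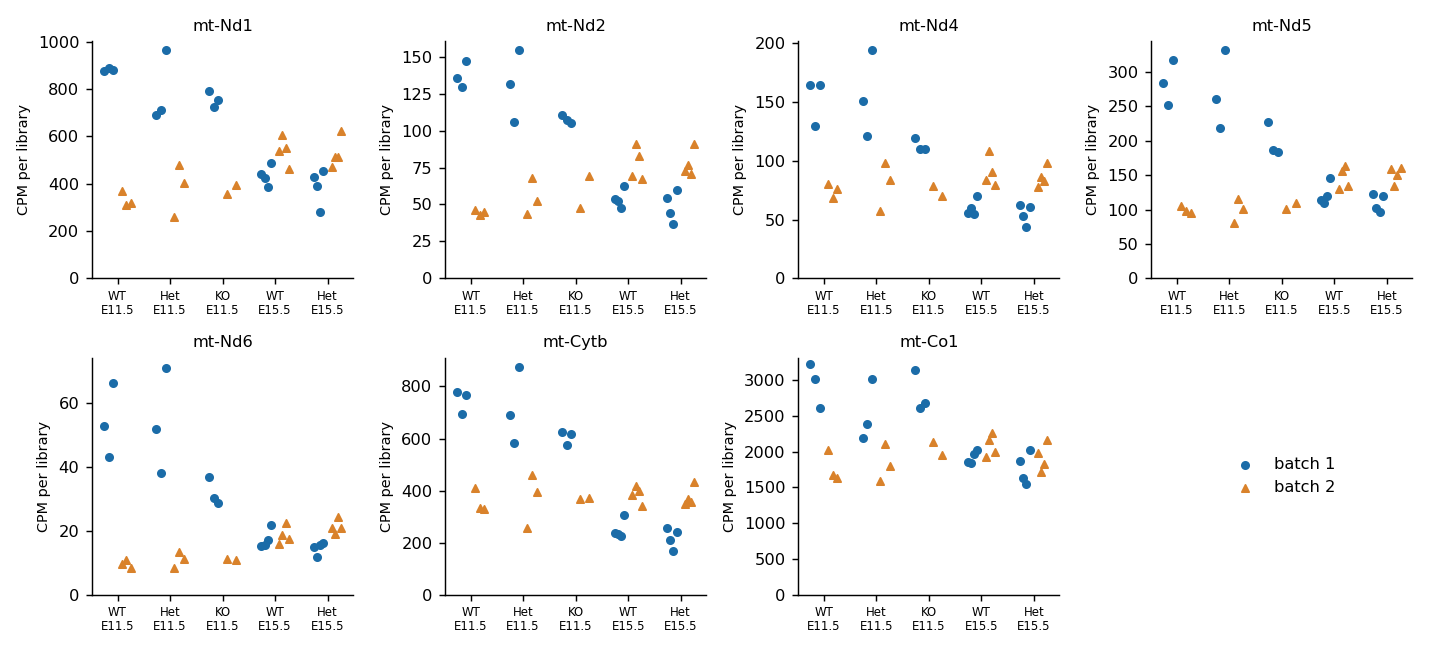
CPM of the 7 counted mitochondrially encoded members in each of the 33 libraries, by group, on linear axes from 0, with circles for batch 1 and triangles for batch 2. At E11.5 batch 1 libraries lie above batch 2 libraries for each gene, and at E15.5 batch 2 runs tend to lie above batch 1 runs.

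**Figure D5:**
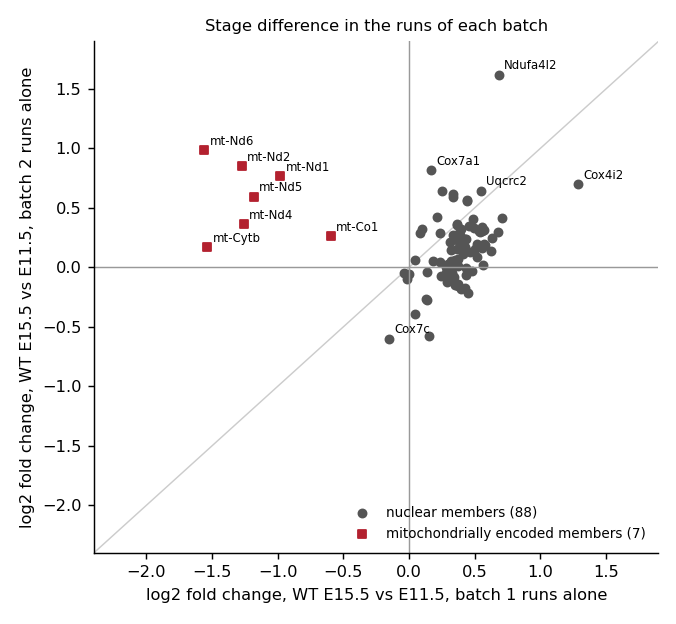
Log2 fold change between E15.5 and E11.5 in wild-type kidneys from batch 1 runs alone (horizontal) and batch 2 runs alone (vertical), with 1 point for each of the 88 nuclear and 7 mitochondrially encoded members tested and a grey line of equal values. The 7 mitochondrial members lie left of 0 and above 0, for example mt-Nd6 at -1.56 and 0.98, while Uqcrc2 lies at 0.55 and 0.65.

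Other genes of mitochondrial metabolism were counted from lists of symbols, against the same background. In the list of the citric acid cycle and pyruvate entry 20 of 25 genes were higher at E15.5 and 0 lower, with 19 and 0 in the runs of each batch. Idh3a, a subunit of the NAD-dependent isocitrate dehydrogenase, rose by 1.00 ± 0.07, Mpc2, part of the mitochondrial pyruvate carrier, by 1.28 ± 0.13, and Pdk4, a kinase that turns pyruvate dehydrogenase off, by 1.82 ± 0.16. Among electron carriers and enzymes that feed the chain 9 of 16 were higher and 0 lower, among them Cycs, which encodes cytochrome c (0.45 ± 0.16, not called without the libraries above 5% ribosomal RNA), and Etfa and Etfdh, which pass electrons from fatty acid oxidation to ubiquinone (0.69 ± 0.13 and 0.44 ± 0.07). In the list of mitochondrial gene expression and biogenesis regulators 13 of 33 were higher and 4 lower. Esrrg, a nuclear receptor that regulates mitochondrial genes, rose by 2.86 ± 0.24 and the coactivator gene Ppargc1a by 0.94 ± 0.32 (not called with wild-type specimens alone), while the related Pprc1 fell by 0.71 ± 0.14. Mitochondrial ribosomal protein genes moved less, with 12 of 76 higher and 1 lower. That count was 43 higher and 2 lower in batch 1 runs and 13 higher and 18 lower in batch 2 runs. Of 36 assembly factors outside the Nduf prefix 3 were higher and 1 lower (15 and 1 in batch 1 runs, 4 and 5 in batch 2 runs), with Tmem70, which acts in the assembly of ATP synthase, at 0.69 ± 0.06. On the hypoxia and glycolysis list 11 of 26 were lower and 3 higher (median -0.10), such as the lactate and glucose transporter genes Slc16a3 (-1.36 ± 0.13) and Slc2a1 (-0.87 ± 0.11) among the lower and Egln3 (2.68 ± 0.18) among the higher.

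The cell type markers also differed between the stages. All 10 proximal tubule markers and all 4 tested loop and distal tubule markers were higher at E15.5, and the loop and distal markers summed to 0.0985 to 0.774 CPM at E11.5 and 137 to 143 CPM at E15.5 in wild-type kidneys. Erythroid markers summed to 2260 to 9644 CPM at E11.5 and 929 to 996 CPM at E15.5, with 7 of 11 lower and 2 higher. The part of these cell types in the rise of the nuclear members was not tested.

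In knockout kidneys at E11.5 the counts on the mitochondrial lists stand beside 7.09% of all genes called. In the citric acid cycle list 2 of 25 fell, Pdk1 (-0.49 ± 0.11), a kinase that turns pyruvate dehydrogenase off and is induced by hypoxia, and Pcx, pyruvate carboxylase (-0.22 ± 0.06). In the carrier list 2 of 16 fell, Gpd2 (-0.30 ± 0.08), a glycerol phosphate dehydrogenase that feeds ubiquinone, and Pdss2 (-0.33 ± 0.08), which acts in ubiquinone synthesis. In the regulator list 2 of 32 fell, the coactivator genes Ppargc1b (-1.11 ± 0.21) and Pprc1 (-0.32 ± 0.06). Surf1, a complex IV assembly factor, rose by 0.19 ± 0.05 as 1 of 35, and 0 of 76 mitochondrial ribosomal protein genes passed. None of these 7 calls was made with 1 batch alone, nor after the libraries above 5% ribosomal RNA were dropped. On the hypoxia and glycolysis list 17 of 26 fell and 0 rose, one of them Pdk1 again, with Hk2 (-0.73 ± 0.10), Ldha (-0.63 ± 0.11) and Car9 (-1.05 ± 0.21). This count was 1 in batch 1, 2 in batch 2 and 4 without libraries above 5% ribosomal RNA. It was 9 without batch in the model and 0 with the title prefix as the block. The 7.09% of all genes called belongs to the main fit. Shares of all genes called in these other fits are not given here, so smaller counts there are not read as lost differences. Of the marker lists, 8 of 8 tested macrophage markers were higher (68.9 to 143 CPM summed in wild-type and 103 to 244 CPM in knockout kidneys) and 8 of 8 nephron progenitor markers lower, and their part in these counts was not tested.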

How the data were processed

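Total RNA of whole kidneys was sequenced on an Illumina platform. Values are unnormalised counts, deposited as 1 table of gene symbols by 33 libraries with a gene length column. STAR 2.4.0h1, featureCounts 1.4.6 and build mm10 are named, per the submitters' processing notes. RNA selection, strandedness and the handling of reads with several matches are not given in the sources used here. Runs of 1 specimen were summed, which gave 24 specimens. At E15.5 runs were joined by technical replicate number, and at E11.5 by titles that differ only in the replicate number.

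The tests used edgeR 4.0.16 (R 4.3.3) on all genes that passed filterByExpr, with scaling by the trimmed mean of M values, the quasi-likelihood F test and Benjamini-Hochberg adjustment at 0.05 over all genes tested. Of the 105 members 95 were tested, 88 nuclear and 7 mitochondrial. Terms were genotype, sex and batch at E11.5, genotype and sex at E15.5, and group and sex over both stages. At E11.5 batch equals the replicate number of the titles and is the replicate block. The pairing comes from that label. CPM values use scaled library sizes. CPM per kb divides by the deposited gene length. The 189 ribosomal RNA rows were chosen after the data were seen. DESeq2 1.42.0, no filter on low counts, ribosomal and mitochondrial rows left out, a ribosomal covariate, other blocks, single batches and leaving out each specimen were tried as alternatives. Fits were tested on simulated data.

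The genes named are the mitochondrial members, the largest called changes, fixed sets of paralogous forms, the leading member of each complex and the Sdh genes. Other names were chosen after their values were seen. The members, the gene lists and the marker lists were chosen with earlier results of these data known. Of the members 104 matched GENCODE vM21 by symbol and 1 by an older symbol.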

Additional observations from a re-analysis of the deposited data

Results flagged for a closer look

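Among 145 groups of 4 to 6 specimens in which the spread of a named member was examined, 2 held a specimen apart from the others, and chance flags about 1 in 20 groups. In wild-type kidneys at E15.5 the lowest value of Atp5g3, a ring subunit gene of ATP synthase, was 222.7 CPM in replicate 1, while the other 3 specimens lay between 233.9 and 234.6 CPM. In the same group and specimen Uqcrc2 of complex III was at 239.3 CPM, with the other 3 between 244.0 and 244.6 CPM. Both gaps are small beside the difference between the stages.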

How the results depend on the processing

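The counts of 0 called members between genotypes held under all alternatives run, with these exceptions. In knockout against heterozygous kidneys DESeq2 called 1 nuclear member, and the title prefix as a block called 1 nuclear and 4 mitochondrial members. That block also called 2 mitochondrial members in knockout against wild-type kidneys. The shares of all genes called in these fits are not given here. Leaving out 1 specimen in turn gave 0 to 1 nuclear members in knockout against wild-type kidneys (1 without wild-type replicate 2), 0 in the other genotype comparisons, 34 to 47 nuclear members and 1 to 2 mitochondrial members between the stages. With no replicate block 0 members were called in each of the 3 comparisons at E11.5, so the pairing by batch changed no call among the members. Batch moved most members, and leaving it out adds that shift to the spread between specimens. This fit could therefore hardly add calls. With batch as a replicate block over the 16 unsummed runs at E15.5, 0 were called.

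Between the stages batch 1 runs alone called 74 nuclear members. Mitochondrial members called numbered 7 with batch 1 runs alone, 6 with batch 2 runs alone, 1 with no filter on low counts, with wild-type specimens alone and with the ribosomal share as a covariate, and 0 without libraries above 5% ribosomal RNA. The last 2 were chosen after seeing the data. Of all genes, 63.7% were called with batch 1 runs alone and 60% with batch 2 runs alone. The shares were 44.2% with wild-type specimens alone and 54.7% without the libraries above 5% ribosomal RNA. Those with no filter and with the covariate are not given here. With batch 2 runs alone all 7 changed sign: mt-Nd4 was at 0.36 (adjusted p = 0.0133), mt-Cytb at 0.17 (0.294), mt-Nd1 at 0.77, mt-Nd2 at 0.85, mt-Co1 at 0.26, mt-Nd5 at 0.59 and mt-Nd6 at 0.98. The cause was not tested. Depth limits the members near 0 counts, which were not tested.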
